A study of Homo sapiens with 6 samples.

Results

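The genes described here are members of the Polycomb repressive complexes: EZH1, EZH2, EED, SUZ12 and JARID2 of Polycomb repressive complex 2 (PRC2), and BMI1, RING1, RNF2, CBX2 and CBX7 of Polycomb repressive complex 1 (PRC1). Members were found by the accession that the array design gives each probe, and every probe was kept separate. Of the 10 listed genes, 9 were matched through the RefSeq table, with 13 probes among the 28174 probes of the array that could be given a gene name, and EED was not analysed here. All 13 probes were well above background on all 6 arrays, so all 13 passed the filter on dim probes.

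A673 is an established Ewing sarcoma cell line, a bone and soft tissue tumour line driven by the EWS/FLI1 fusion protein. The A673/TR cells carry the tetracycline repressor and were infected with a doxycycline-inducible lentiviral vector, either empty (A673/TR/empty, control) or encoding the propeptide of lysyl oxidase (A673/TR/LOX-PP), and stable clones were selected, so that differences between clones and the action of the propeptide cannot be told apart. RNA of 3 independent experiments for each line was hybridised to Agilent arrays in 1 colour, after 72 h with doxycycline in the A673/TR/LOX-PP cells. The labels give doxycycline (1 uM) as the treatment of every sample. The results text of the study names it only for the A673/TR/LOX-PP cells, and the wording of its methods can be read either way. Whether the control cells received it is not settled in the sources used here.

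Polycomb proteins keep developmental genes silent. PRC2 places methyl groups on lysine 27 of histone H3 through its catalytic subunit EZH2 or EZH1, held in an active complex by EED and SUZ12, while PRC1 attaches ubiquitin to histone H2A through RING1 or RNF2 and, in its canonical form, reads the PRC2 mark through a CBX protein. EZH2 is a known direct target of the Ewing sarcoma fusion protein and is typical of dividing cells, whereas EZH1 is found in dividing and resting cells alike.

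The promoters of EZH1 and EZH2, the alternative catalytic subunits of PRC2, and of JARID2, which helps to recruit PRC2, are shown because the EZH1 and JARID2 probes were the 2 member probes with an unadjusted p under 0.05 and EZH2 is the partner of EZH1. This choice was made after their values were seen. Each sequence runs 5' to 3' on the strand of the gene, from 250 bases before the start site to 50 bases after it, and comes from RefSeq on GRCh38.p14. Capitals mark matches on either strand to GGGCGG (read by SP1), to CCAAT (read by NFY) and to the E2F-type words TTTGGCGC, TTTCGCGC, TTTCCCGC and TTTGCCGC, and overlapping matches are counted separately.
EZH1, chr17:42744991-42745290, minus strand: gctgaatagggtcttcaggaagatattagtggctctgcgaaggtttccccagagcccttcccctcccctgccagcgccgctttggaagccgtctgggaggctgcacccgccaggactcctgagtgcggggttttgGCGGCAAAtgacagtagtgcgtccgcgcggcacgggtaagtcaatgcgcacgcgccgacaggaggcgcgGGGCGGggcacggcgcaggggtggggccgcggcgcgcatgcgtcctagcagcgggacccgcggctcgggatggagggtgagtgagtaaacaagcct
EZH2, chr7:148884242-148884541, minus strand: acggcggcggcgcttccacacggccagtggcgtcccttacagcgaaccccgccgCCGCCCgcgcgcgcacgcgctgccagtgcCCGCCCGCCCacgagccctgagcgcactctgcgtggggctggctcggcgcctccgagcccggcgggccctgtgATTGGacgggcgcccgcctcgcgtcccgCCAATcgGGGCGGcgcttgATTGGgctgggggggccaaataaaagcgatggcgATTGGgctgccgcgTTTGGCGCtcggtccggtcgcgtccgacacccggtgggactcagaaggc
JARID2, chr6:15245819-15246118, plus strand: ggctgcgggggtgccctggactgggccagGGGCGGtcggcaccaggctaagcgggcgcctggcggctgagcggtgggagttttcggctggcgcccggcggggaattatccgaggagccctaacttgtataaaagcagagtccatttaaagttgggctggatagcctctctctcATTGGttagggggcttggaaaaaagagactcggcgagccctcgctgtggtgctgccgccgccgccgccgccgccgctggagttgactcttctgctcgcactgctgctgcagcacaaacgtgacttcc

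The EZH2 window held 4 matches to CCAAT, 4 to GGGCGG and TTTGGCGC with its leftmost base 1 base past the start site. The EZH1 window held none to CCAAT, 1 to GGGCGG and TTTGCCGC with its leftmost base at -115. The JARID2 window (1 of 2 in the table, as for EZH2) had 1 match to GGGCGG and 1 to CCAAT. The matches differed between windows of 1 gene. The other EZH2 window had 1 match to GGGCGG and none to CCAAT or an E2F-type word. The other JARID2 window had 6 to GGGCGG and none to CCAAT. Of the 12 windows of 9 member genes (CBX2 had none in the table), 3 held an E2F-type word, those of EZH1, EZH2 (the window printed) and SUZ12, against 3.31% of all 35116 windows of 300 bases. GGGCGG was in 11 of 12 windows (45.0% of all) and CCAAT in 5 (34.6% of all). The number of CpG pairs ran from 16 in EED to 65 in a BMI1 window, with 30 in EZH1 and 46 in EZH2, and the median of all windows was 14. No member window held GGAAGGAA, a repeat form bound by EWS/FLI1, or the ETS word CCGGAAGT, which 3.67% and 4.14% of all windows held. A match is only a run of letters, and binding was not measured.

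On each array, 58717 gene spots stood for 50599 probes, with the share of spots well above background between 56.9% and 74.8%. Replicate 1 of the LOX-PP arrays was on another slide, and in another scan, than the other 5. Across all 32647 probes tested, 1849 passed an adjusted p under 0.05 in limma (5.66%), 1080 higher and 769 lower in LOX-PP, and under quantile normalization the split was 908 higher and 983 lower. The difference (log2) had a median of 0.13 over the tested probes, which became -0.03 under quantile normalization, so the differences of members are also given relative to this median. All 15 probes of the Ewing identity list (10 genes, among them CD99, NR0B1 and NKX2-2) were well above background on every array, and 0 passed the threshold in limma. At an unadjusted p under 0.05 there were 2, both higher in LOX-PP, against 12.3% of all tested probes. These were NKX2-2 (0.98, adjusted p = 0.0782 in limma) and a BCL11B probe (0.94, adjusted p = 0.0959), while the other BCL11B probe differed by 0.0044. The groups did not overlap on 3 probes higher and 1 lower in LOX-PP (16.1% and 13.4% of all). Of the epithelial and leukocyte markers, the CDH1 probe and 2 of 4 PTPRC probes were above background on no array. The fibroblast list had 2 of 8 tested probes past the threshold as lower in LOX-PP, against 2.36% of all tested probes. These were COL1A2 and LUM, the latter above background on 3 of 6 arrays. The COL1A1 probe differed by 0.65 (adjusted p = 0.175 in limma). In this list the groups did not overlap on 1 probe higher (COL1A1) and 3 lower (16.1% and 13.4% of all). The summed log2 level of the fibroblast list lay between 6.38 and 6.41 in the controls and between 5.52 and 6.15 in the LOX-PP cells. The epithelial list had 1 of 6 tested probes past the threshold as higher (CLDN4), against 3.31% of all tested probes. KRT19 (-0.88, adjusted p = 0.0519 in limma) and a KRT18 probe (-0.65, adjusted p = 0.113) lay lower without overlap, against 13.4% of all probes. The summed level of the epithelial list was between 6.38 and 6.41 in the controls and between 5.93 and 6.43 in the LOX-PP cells. The leukocyte list had 0 of 5 probes past the threshold and 0 at an unadjusted p under 0.05. The part of these markers in the results below was not tested.

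None of the 13 member probes passed an adjusted p under 0.05 in limma, where 5.66% of all tested probes did. At an unadjusted p under 0.05 there were 2 of 13, the EZH1 and JARID2 probes, against 21.3% of all tested probes. On 4 of 13 probes (EZH1, JARID2, RING1 and 1 CBX2 probe) the 3 LOX-PP arrays all lay above the 3 control arrays, against 16.1% of all probes, and on none did they all lie below, against 13.4%; in either direction the groups did not overlap for 29.5% of all probes. The median difference of the 13 probes was 0.18, or 0.05 relative to the median of all tested probes, and 9 of 13 lay above that median. The values below are log2 signals relative to the 75th percentile of the array, so that 0 is the signal of that percentile and -1 is a signal 1 log2 step under it.

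**Figure D1:**
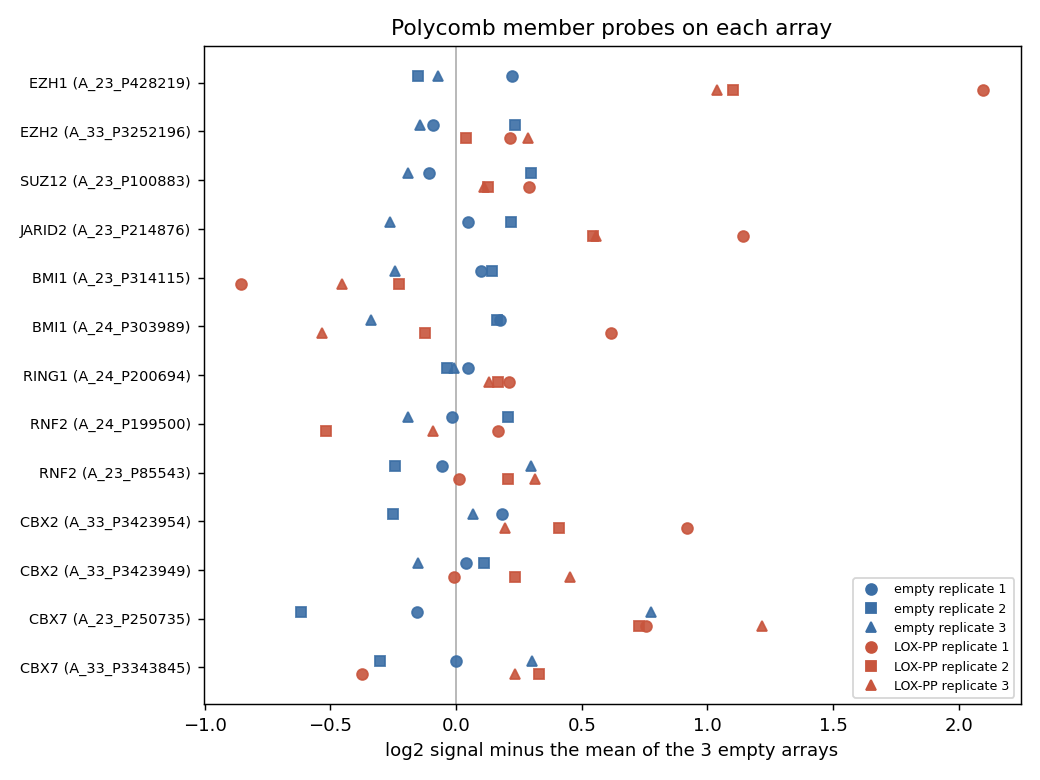
The 13 member probes on each of the 6 arrays, as the log2 signal minus the mean of the 3 control (empty) arrays of the same probe; colour gives the line and marker shape the replicate. The 3 LOX-PP arrays lie apart from the controls for EZH1 and JARID2, by little for RING1 and 1 CBX2 probe, and overlap them for the other probes.

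Among the catalytic subunits of PRC2, EZH1 had the largest difference of any member probe, but it missed the threshold. Its probe (A_23_P428219, chromosome 17) read -0.22, -0.60 and -0.52 on control replicates 1 to 3, and 1.65, 0.66 and 0.59 on LOX-PP replicates 1 to 3. The groups did not overlap, and replicate 1 of LOX-PP lay about 1 log2 step above the other LOX-PP arrays. The difference was 1.41 (95% interval 0.63 to 2.20, n = 3 and 3, limma), a 2.66-fold higher signal with an interval from 1.54 to 4.60, and 1.29 relative to the median of all tested probes. Its adjusted p of 0.0592 in limma missed the threshold. Without LOX-PP replicate 1, which is also the comparison within 1 slide, the difference was 1.07 and the adjusted p 0.0430, so that the call depends on that array. With the slide as a block (6.32% of all probes called) the fit is the same as without that array, since it is alone on its slide. EZH1 was also the 1 member past the threshold after normexp (7.26%) and among probes above background on all 6 arrays (6.99%). By the methods' t-test, 3 member probes (EZH1, JARID2 and RING1) passed unadjusted (19.7% of all probes) and 0 after adjustment (1.73%). Over the 15 alternatives the EZH1 difference stayed between 1.07 and 1.60 with an adjusted p between 0.0298 and 0.231. The EZH1 probe is in the seventh decile of mean signal, where the median of all probes was -0.17 relative to the median of all.

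EZH2, the more active of the 2 methyltransferases, did not pass the test. The probe (A_33_P3252196, chromosome 7) read 3.71, 4.04 and 3.65 in the control cells and 4.01, 3.84 and 4.09 in the LOX-PP cells. The groups overlapped, since LOX-PP replicates 1 and 2 lay below control replicate 2. The difference was 0.18 (95% interval -0.33 to 0.69, adjusted p = 0.684 in limma), so that fold values from 0.793 to 1.62 lie within the interval. Relative to the median of all probes the difference was 0.05, and under 5 of 15 alternatives its sign relative to that median turned.

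The balance between both enzymes was compared within each array, as the log2 signal of the EZH2 probe minus that of the EZH1 probe, which shows a change between arrays but not which mRNA was more abundant. On the control arrays it was 3.93, 4.63 and 4.17, and on the LOX-PP arrays 2.36, 3.18 and 3.49. Every LOX-PP array thus had a smaller EZH2 to EZH1 difference than every control array. The means were 4.25 ± 0.36 and 3.01 ± 0.58 (SD, n = 3 and 3), a difference of -1.23, with p = 0.1 in a two-sided exact permutation test, the smallest p that 3 against 3 arrays allow (adjusted over 3 pairs, 0.3). Leaving out each array in turn gave values between -1.48 and -0.91.

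SUZ12 and JARID2 belong to the same complex. SUZ12, the scaffold of PRC2, was measured by a probe printed on 10 spots (A_23_P100883, chromosome 17), which read 2.96, 3.37 and 2.88 in the control cells and 3.36, 3.19 and 3.18 in the LOX-PP cells. These groups overlapped, and the difference was 0.18 (95% interval -0.36 to 0.71, adjusted p = 0.704 in limma). JARID2, a DNA-binding cofactor of PRC2 without catalytic activity of its own (A_23_P214876, chromosome 6), read 2.00, 2.17 and 1.69 in the control cells and 3.10, 2.50 and 2.51 in the LOX-PP cells. Here the groups did not overlap, and LOX-PP replicate 1 again lay highest. The difference was 0.75 (95% interval 0.12 to 1.37, 1.68-fold, adjusted p = 0.165 in limma), or 0.62 relative to the median of all probes. It missed the threshold under all 15 alternatives (adjusted p between 0.0636 and 0.423), and was 0.55 without LOX-PP replicate 1.

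Of the ubiquitin ligase subunits of PRC1, RING1 (A_24_P200694, chromosome 6) had the smallest spread between arrays of 1 line. It read 1.84, 1.75 and 1.78 in the control cells and 2.00, 1.96 and 1.92 in the LOX-PP cells. The arrays of the lines did not overlap, yet the difference was only 0.17 (95% interval -0.28 to 0.62, adjusted p = 0.659 in limma), close to the shift of 0.13 of all tested probes. RNF2, its paralog on chromosome 1, had 2 probes. A_23_P85543 read 1.10, 0.91 and 1.45 in the control cells and 1.17, 1.36 and 1.47 in the LOX-PP cells (difference 0.18, 95% interval -0.38 to 0.73). A_24_P199500 read 0.08, 0.30 and -0.10 against 0.26, -0.43 and -0.0015 (difference -0.15, 95% interval -0.76 to 0.46). Both RNF2 probes overlapped between the lines, and their adjusted p were 0.711 and 0.787 in limma. The RNF2 minus RING1 value within arrays differed between the lines by 0.01 (p = 0.9, two-sided exact permutation test).

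BMI1 (chromosome 10), the PCGF subunit that stimulates the ligase of canonical PRC1, had 2 probes. A_23_P314115 read 1.37, 1.42 and 1.03 in the control cells and 0.42, 1.05 and 0.82 in the LOX-PP cells, with LOX-PP replicate 1 the lowest of all 6. This was the largest negative difference of a member, -0.51 (95% interval -1.11 to 0.09, adjusted p = 0.296 in limma). A_24_P303989 read 0.81, 0.79 and 0.29 against 1.25, 0.51 and 0.10, with LOX-PP replicate 1 the highest of all 6. Its difference was -0.01 (95% interval -0.82 to 0.80), and its sign turned under 6 of 15 alternatives. LOX-PP replicate 1, the array on the other slide, was thus at opposite ends for both probes of BMI1, and the gap between their differences was -0.50 (p = 0.4, two-sided exact permutation test).

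The chromobox proteins read the PRC2 mark. CBX2 (chromosome 17) had a probe for each of 2 transcripts. A_33_P3423949 read 4.50, 4.57 and 4.30 in the control cells and 4.45, 4.69 and 4.91 in the LOX-PP cells, which overlapped (difference 0.23, 95% interval -0.30 to 0.75). A_33_P3423954 read -3.15, -3.58 and -3.26 against -2.41, -2.92 and -3.14, with no overlap but with LOX-PP replicate 3 only just above control replicate 1 (difference 0.51, 95% interval -0.13 to 1.14). Neither CBX2 probe passed the test (adjusted p 0.610 and 0.326 in limma).

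CBX7 (chromosome 22), which forms part of PRC1 in stem cells and resting cells, also had 2 probes. A_23_P250735 read -1.63, -2.09 and -0.70 in the control cells and -0.72, -0.74 and -0.25 in the LOX-PP cells. Control replicate 3 lay among the LOX-PP arrays, and the difference was 0.90 (95% interval -0.01 to 1.81, adjusted p = 0.237 in limma). A_33_P3343845 read -1.04, -1.34 and -0.74 against -1.42, -0.71 and -0.81, which overlapped (difference 0.06, 95% interval -0.61 to 0.74). The gap between the differences of both CBX7 probes was 0.84 (p = 0.2, two-sided exact permutation test). The CBX2 minus CBX7 value within arrays, by the brighter probe of each, differed between the lines by 0.16 (p = 0.7, two-sided exact permutation test). Over the 4 genes with 2 probes, the adjusted p of such gaps was 0.5 in each case, in a design where p cannot go under 0.1.

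**Figure D2:**
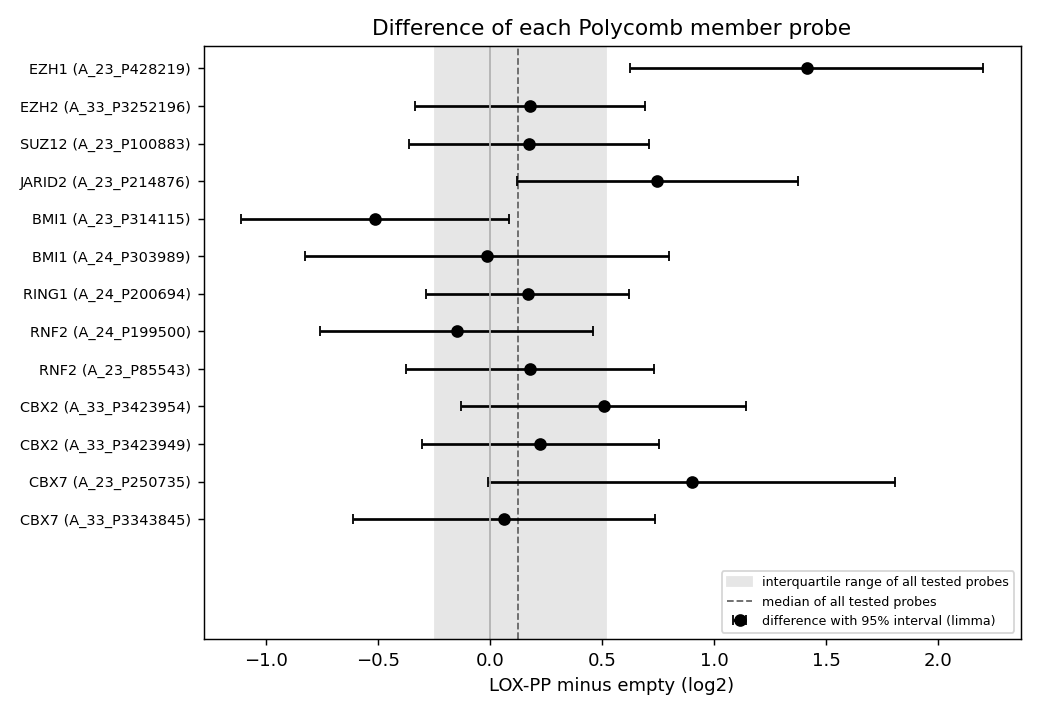
LOX-PP minus empty (log2) for each member probe, with its 95% interval from limma (n = 3 and 3); the dashed line is the median of all 32647 tested probes (0.13) and the grey band their interquartile range (-0.24 to 0.52). The intervals of EZH1 and JARID2 lie wholly above 0, and those of the other 11 probes include it.

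The probes nearest to EZH2 in pattern were sought among 18743 probes of other genes that were well above background on all arrays, by the root-mean-square distance over the 6 arrays after centring each probe on its mean. They were ZNF160 (0.0435), BRI3 (0.0479) and MRM2 (0.0489), where the median probe lay at 0.386. For EZH1 they were SNORD45A (0.0847), LSM11 (0.0890) and SNORD96B (0.110), where the median probe lay at 0.864. These distances are on the log2 scale and describe 6 arrays only.

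The other subunits of the complexes were taken from lists of known components. Of 13 probes for the other PRC2 subunits (8 genes), 1 passed the threshold as lower in LOX-PP (2.36% of all tested probes) and none as higher (3.31%), and their median difference was -0.36, or -0.49 relative to the median of all tested probes. On 7 of 13 the LOX-PP arrays all lay below the control arrays and on 1 (MTF2) above, against 13.4% and 16.1% of all probes. Those 7 were probes of RBBP4, PHF19, PHF1 and LCOR, so that RBBP4 and PHF19 count more than once. The probe past the threshold was A_24_P468810 for RBBP4, a histone-binding subunit that PRC2 shares with other chromatin complexes. It read 2.67, 2.48 and 2.31 in the control cells and 1.00, 1.22 and 0.81 in the LOX-PP cells, a fall of 1.48 (SE 0.22, adjusted p = 0.0151 in limma). The other 3 RBBP4 probes had differences of -0.24, -0.49 and -0.60 and did not pass. PHF19, a Tudor-domain protein that guides PRC2, had a difference of -0.98 by A_23_P21436 (adjusted p = 0.0779) and of -0.16 by its other probe. The RBBP4 call was lost without control replicate 1 (adjusted p = 0.109) and without control replicate 2 (adjusted p = 0.0851).

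For the other PRC1 subunits (27 genes), 1 of 41 probes passed as lower and none as higher (2.36% and 3.31% of all tested probes), on 13 the LOX-PP arrays all lay below and on 2 above the control arrays (13.4% and 16.1% of all), and the list had a median of -0.17, or -0.29 relative to all tested probes. USP7, a deubiquitinase that associates with variant PRC1 and acts on many other proteins, was the gene with the call. Its probe A_24_P245108 read -0.33, -0.27 and -0.67 in the control cells and -1.53, -1.67 and -1.56 in the LOX-PP cells, a fall of 1.16 (SE 0.21, adjusted p = 0.0281 in limma). That call was lost without control replicate 1, control replicate 2, LOX-PP replicate 2 or LOX-PP replicate 3 (adjusted p 0.167, 0.146, 0.0812 and 0.0681). PCGF5, a BMI1 relative in variant PRC1, had a difference of -0.88 by A_24_P880043 (adjusted p = 0.134). Across deciles of mean signal the median of all probes ran from -0.25 to 0.27 relative to the median of all, the lowest in the eighth and the ninth decile, and 8 of the 13 PRC2 and 11 of the 41 PRC1 probes lie in those deciles. The part of this trend in the medians of the lists was not tested.

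Enzymes that oppose the Polycomb marks did not pass the test. The PR-DUB complex around BAP1 removes ubiquitin from H2A, and 0 of its 15 tested probes passed in limma against 5.66% of all probes (3 at an unadjusted p under 0.05, all higher, against 12.3% of all). The largest t were those of FOXK2 (0.84, A_33_P3310070, adjusted p = 0.114) and MBD5 (1.17, A_33_P3854030, adjusted p = 0.134). The other FOXK2 probes, which had a higher signal, differed by -0.46 and 0.36, and the other MBD5 probes by 0.75 and 0.58. The H3K27 demethylases had 0 of 3 probes past the threshold and 0 at an unadjusted p under 0.05. KDM6B read -1.78, -2.22 and -2.42 in the control cells and 0.20, -1.73 and -1.38 in the LOX-PP cells. The groups did not overlap, with LOX-PP replicate 1 far above the rest, and the difference of 1.17 (adjusted p = 0.246) was 0.59 without that array. A KDM6A probe (A_33_P3218955) differed by 0.60 (adjusted p = 0.288) and the other KDM6A probe by 0.30.

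Trithorax and SWI/SNF proteins keep genes active against Polycomb. None of 22 probes of the trithorax and MLL complexes passed in limma (1 at an unadjusted p under 0.05, against 21.3% of all probes), and the largest t were those of RBBP5 (0.90, A_33_P3235642, adjusted p = 0.0771) and KMT2B (0.50, A_23_P142421, adjusted p = 0.277). The other RBBP5 probe differed by 0.52 and the other KMT2B probe by -0.15. Of 26 SWI/SNF probes, 1 passed as lower, against 2.36% of all probes. SMARCA2, an ATPase of the complex, fell by 1.31 by A_23_P60354 (SE 0.29, adjusted p = 0.0478 in limma), while its other probe had a difference of -0.93 (adjusted p = 0.235). The call was lost when any single array was left out (adjusted p between 0.0503 and 0.227). PHF10, a subunit of the PBAF form, had a difference of -1.27 (A_23_P503200, adjusted p = 0.0885). The SWI/SNF median was -0.44 relative to all tested probes and became -0.20 under quantile normalization, as that of the other PRC2 subunits went from -0.49 to -0.22. Of the 26 SWI/SNF probes, 12 lie in the eighth and the ninth decile of mean signal. The part of the trend with signal in the SWI/SNF median was not tested.

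A list of 51 genes known as Polycomb targets in stem cells was read on the same arrays. It holds developmental regulators and also CDKN2A and CDKN2B of the INK4 locus. It had 64 probes, of which 41 (34 genes) were tested, and 16 were well above background on no array. Of the 41 tested probes, 7 passed the threshold (17.1%, against 5.66% of all tested probes), 3 higher and 4 lower in LOX-PP, and the median of the list was -0.10 relative to all. The changes thus ran in both directions. The list was made with earlier results of these data known, so its share beside that of all probes is no test of the targets. Whether any of these genes carried Polycomb marks in A673 cells was not measured.

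GATA6, a zinc-finger factor of endoderm and heart, rose most. It read -5.76, -5.32 and -6.13 on the control arrays, of which 2 were well above background, and -1.99, -2.48 and -2.95 on the LOX-PP arrays, a difference of 3.26 (SE 0.33, adjusted p = 0.00378 in limma). PITX1, a homeobox factor of the hind limb, read -0.49, -0.27 and 0.25 against 2.30, 1.92 and 2.36 by A_33_P3240328, a difference of 2.36 (SE 0.27, adjusted p = 0.00583), and its other probe differed by 1.71 (adjusted p = 0.0527). LHX2, a LIM homeobox factor of forebrain and eye, was above background on 0 of 3 control arrays and on all 3 LOX-PP arrays. Its signal was at least 3.26-fold higher in LOX-PP (adjusted p = 0.0315 in limma), set against the lowest signal well above background on each control array or the probe's own signal, whichever was higher. The LHX2 probe passed the filter on dim probes only through the LOX-PP arrays, so its p and its place in the count of 7 rest on that filter, and its adjusted p was 0.110 without it. The size for dim probes depended on the processing, since after normexp the difference was 0.87 for LHX2 and 1.64 for GATA6, and the bound on LHX2 holds for the main scaling alone. GATA6 and PITX1 kept their calls under every alternative that tested them, and the PITX1 difference stayed between 2.20 and 2.58.

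SOX1, a factor of neural precursors, fell most. It read 0.12, 0.34 and -0.52 in the control cells and -2.42, -2.45 and -3.21 in the LOX-PP cells, a fall of 2.68 (SE 0.33, adjusted p = 0.00761 in limma). The paired box gene PAX7, of muscle and neural crest precursors, read 3.04, 3.57 and 2.73 against 1.17, 1.07 and 1.32 by A_33_P3291579, a fall of 1.93 (SE 0.27, adjusted p = 0.0120), while its other probe had a difference of -0.21 (adjusted p = 0.675). The neighbouring homeobox genes DLX1 and DLX2 fell by 1.88 (SE 0.28, adjusted p = 0.0145) and 1.36 (SE 0.27, adjusted p = 0.0352). For all 4 the groups did not overlap.

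The count of 7 targets changed with single arrays left out, as did the count over all probes, 1849 in the main fit. It was 2 without control replicate 1, 3 without control replicate 2 and 5 without LOX-PP replicate 2, where 407, 444 and 892 of all probes passed. Without control replicate 3 it was 3 higher and 4 lower, without LOX-PP replicate 1 it was 4 and 4, and without LOX-PP replicate 3 it was 3 and 3. In these 3 fits 1323, 2062 and 1037 of all probes passed. SOX1 lost its call without control replicate 1 (adjusted p = 0.0560), DLX1 and PAX7 lost theirs without control replicate 1 (0.0952 and 0.0741) or control replicate 2 (0.0820 and 0.0520), and LHX2 without either of these or LOX-PP replicate 2 or 3 (0.0888 to 0.146). Of the fits without 1 array, DLX2 passed in the 1 that left out control replicate 3 (0.0319, against 0.0576 to 0.182 in the others). The INK4 locus, a classic target of BMI1 whose probes are part of the target list, was looked at singly after the values were seen. CDKN2A had differences of 0.34 and 1.01 by its 2 probes (adjusted p 0.847 and 0.442 in limma), and both overlapped between the lines. The first read 2.53, 0.66 and -0.85 on the LOX-PP arrays, and the second was well above background on 1 control array and on 3 LOX-PP arrays. The CDKN2B probe was well above background on no array.

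**Figure D3:**
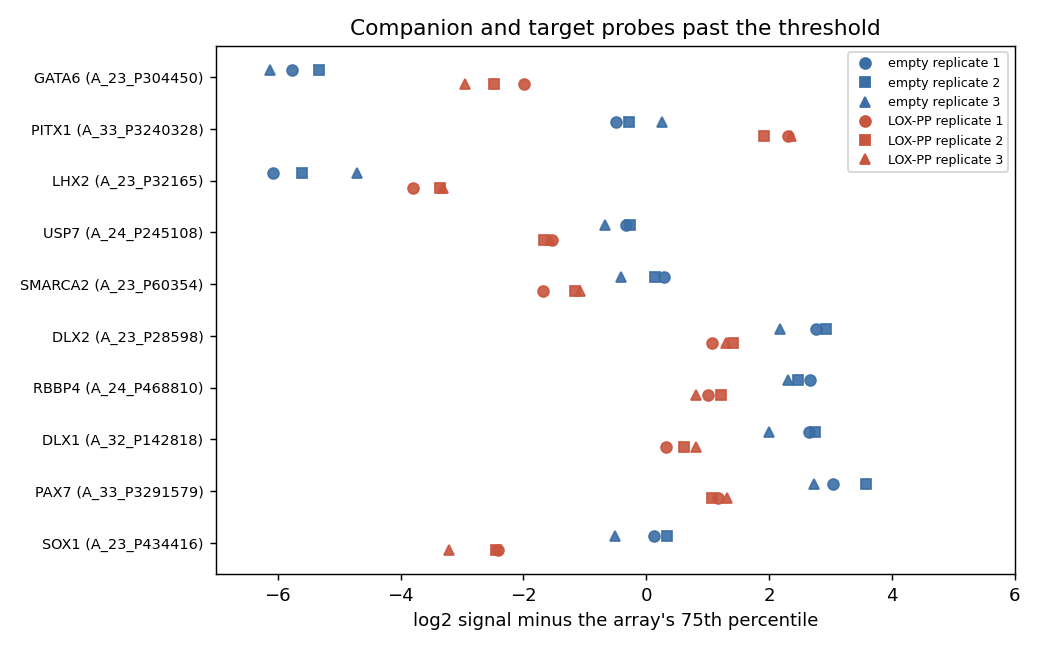
The 10 probes of the companion, SWI/SNF and developmental target lists that passed the threshold, as the log2 signal relative to the 75th percentile of each array; colour gives the line and marker shape the replicate. In every row the 3 LOX-PP arrays lie apart from the 3 control arrays, to the right for GATA6, PITX1 and LHX2 and to the left for the other 7.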

How the data were processed

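The deposited scanner files hold the intensity of each spot as Agilent Feature Extraction 10.7 wrote it, already background-corrected, with flags for outliers and spots well above background. The authors also deposited log2 values, which match the corrected intensity scaled to each array's 75th percentile and centred on each probe's median within 0.02. Per the file headers, the array design refers to hg19 (GRCh37).

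Control and outlier spots were left out, log2 intensities of a probe's spots were averaged, and each array was scaled to its 75th percentile. Tests used the probes that rose well above background on 3 or more of the 6 arrays, in limma 3.58.1 (R 4.3.3), without a block, with Benjamini-Hochberg adjustment over all 32647. Intervals and SE are from limma, SD from the 3 arrays of a line. Probe pairs were compared by exact permutation. The steps were tested on simulated data. Names came from a RefSeq table on GRCh38.p14, used for names and chromosomes, and its promoter table.

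Other settings tried were scaling by quantiles, scaling by the median of bright probes (well above background on all arrays), normexp (offset 50) on median signals with quantile normalization, the authors' values, no filter on dim probes, all 6 arrays above background, the slide or the replicate number as a block, the methods' t-test, and leaving out each array.

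The members, the lists and the choice of tests were made with earlier results of these data known. Named genes are all member probes, and in each other list the probes past the threshold and the 2 with the largest absolute t; 1 gene of the target list is not reported here, and further probes of a named gene and the marker and CDKN2 genes were added. For likeness, the 3 nearest probes to EZH2 and to the member with the largest t are named. The number of arrays limits the precision, and p-values measure the spread between these samples.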

Additional observations from a re-analysis of the deposited data

How the results depend on the processing

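Of the values of single named probes under the alternatives, 413 kept direction and side of the threshold, 48 kept the direction and lost the threshold, 5 gained it (EZH1 in 4, of which the slide block and the fit without LOX-PP replicate 1 are the same fit, and PHF10 in 1) and 12 reversed, all of them member probes that did not pass. The member count of 0 in limma (2 at an unadjusted p under 0.05, 3 by the methods' t-test unadjusted and 0 adjusted) became 1, EZH1, after normexp, with probes above background on all 6 arrays, and with the slide as a block, and was 0 to 1 on leaving out each array. All probes past the threshold numbered 516 without a filter, 860 with the replicate block and 566 by the methods' t-test, and 407 to 2062 on leaving out each array. The split was 1089 higher and 1282 lower after normexp. The companion count of 2 became 0 without a filter, 0 with the replicate block and 1 by the methods' t-test (0 to 2 on leaving out each array), the target count of 7 became 3, 4 and 2 (2 to 8), and the trithorax and SWI/SNF count of 1 became 2 after normexp (PHF10 added) and 0 without a filter, with the slide block, with the replicate block, by the methods' t-test and on leaving out each array. With the replicate block 0 member probes passed. The deviations of same-numbered arrays from the mean of their line had r = 0.27, -0.39 and 0.23. With 3 arrays in each line centred on their own mean, these values cannot decide whether the numbers pair the samples.

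The sign reversed for BMI1 A_24_P303989 under quantile normalization (0.0457) and normexp (0.0241), with -0.33 to 0.25 on leaving out each array, and for CBX7 A_33_P3343845 (-0.0737 and -0.0583, -0.0867 to 0.28). RNF2 A_24_P199500 ran from -0.31 to 0.0374 on leaving out each array. RNF2 minus RING1 reversed under quantile normalization (-0.0159) and normexp (-0.0475), with -0.0937 to 0.16 on leaving out each array, and CBX2 minus CBX7 ran from -0.0642 to 0.37. For these values the cause was not tested. An array signal gives no count of molecules, and 23 of 64 target probes were too dim to test.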
